A study of Homo sapiens with 8 samples.

Results

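Imprinted genes outside the 11p15 cluster were compared between 2 kinds of endothelial cell made from WTC-TJP1, an established line of human pluripotent stem cells: general endothelial cells (iEC) and retinal endothelial cells (iREC), each at passage 1. The genes were picked by symbol with results of this comparison already known: DLK1, MEG3, MEST, PEG10, PEG3, PLAGL1, NNAT, GRB10, NDN and SGCE. The deposited table of 30386 genes gave rows for 9 of the 10, and PEG3 was not analysed here. All 9 passed the filter on low counts, with 15330 genes tested in all. Of the 9, 7 are classed as paternally expressed (DLK1, MEST, PEG10, PLAGL1, NNAT, NDN and SGCE) and 2 as maternally expressed (MEG3 and GRB10). GRB10 belongs to that class only in part, since in most human tissues it is read from both alleles, with maternal expression known mainly from the placenta. The counts do not separate the alleles or the transcript isoforms, so parental origin is background here and was not measured.

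Each group had 4 samples, lettered C to F. The design text calls the iREC differentiations matched, the labels give the cells of both groups as endothelial, and neither names an agent, sorting step or genotype difference between the groups. Every sample comes from a single cell line, and the labels do not say that the letters mark separate cultures, so the error given is the spread between these samples. In cultures measured in bulk, fewer expressing cells and less RNA per cell cannot be told apart.

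Imprinted genes are expressed from a single parental allele, which is set by DNA methylation laid down at imprinting control regions in the germ line and kept after fertilisation by factors such as ZFP57 and TRIM28. Many of them regulate growth of the fetus and placenta, and several are abundant in embryonic tissues and fall after birth. They lie in domains in which paternally and maternally expressed genes often share a control region, as DLK1 and MEG3 do on chromosome 14 and PEG10 and SGCE on chromosome 7.

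Several of these genes carry microRNAs in their introns. The 3 mature microRNAs below, from the RefSeq set on GRCh38.p14, lie inside MEST and MEG3 on the same strand as their host. They are shown because the hosts are the most abundant member in iREC and the noncoding RNA paired with DLK1. The seed, bases 2 to 8, is in capitals, and the 3 seeds differ. They lie at chr7:130496126-130496148, chr7:130496162-130496183 and chr14:100852409-100852431, all on the plus strand, and their levels were not analysed here.
hsa-miR-335-5p: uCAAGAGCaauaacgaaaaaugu
hsa-miR-335-3p: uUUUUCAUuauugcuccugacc
hsa-miR-770-5p: uCCAGUACcacgugucagggcca

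Upstream windows are shown for MEST and MEG3, because methylation of CpG sites around these starts differs between the parental alleles in most tissues. Each is the 250 bases before a RefSeq start on GRCh38.p14, on the plus strand, with CpG dinucleotides in capitals. The MEST window is at chr7:130491808-130492057, and the MEG3 window at chr14:100825858-100826107, each before a start inside the gene.
MEST: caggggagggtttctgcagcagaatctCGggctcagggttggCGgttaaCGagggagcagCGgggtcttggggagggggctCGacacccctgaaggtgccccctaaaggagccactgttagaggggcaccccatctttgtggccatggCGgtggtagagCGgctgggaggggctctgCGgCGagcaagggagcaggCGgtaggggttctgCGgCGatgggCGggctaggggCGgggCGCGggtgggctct
MEG3: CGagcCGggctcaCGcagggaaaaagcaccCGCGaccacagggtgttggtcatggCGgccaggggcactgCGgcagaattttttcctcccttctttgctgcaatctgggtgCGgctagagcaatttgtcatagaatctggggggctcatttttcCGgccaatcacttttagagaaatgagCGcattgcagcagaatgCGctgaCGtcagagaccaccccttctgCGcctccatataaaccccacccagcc

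The MEST window held 16 CpG and the MEG3 window 13, against a median of 11 over the 35116 RefSeq windows of the same length. The ZFP57 recognition letters TGCCGC, read on both strands, occurred in 12.7% of all those windows. They were found in the MEG3 window and not in the MEST window printed here. Over the 19 windows listed for MEG3, MEST, PLAGL1, GRB10 and NDN, some of which overlap, 7 held the letters, at least 1 for each of the 5 genes. A match is a description of the letters. Methylation was not analysed here.

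The libraries held 13739364 to 16971865 counts each. Between 20976 and 25817 genes had at least 1 count, the most in iREC E. The floor used for detection, 3 counts, equals 0.178 to 0.215 CPM (counts scaled by the library total and the trimmed mean of M values, TMM), counting error only. The 10 endothelial markers summed to 6582 to 8665 CPM in iEC and 4359 to 9787 CPM in iREC. In iREC the sum was 4359 CPM in F and 7399 to 9787 CPM in C, D and E. Of the 10, 6 were called by edgeR, against 25.0% of all tested genes. TEK (58.9 to 833 CPM), EMCN (4.21 to 432 CPM) and CLDN5 (365 to 634 CPM) were higher in iREC. CLDN5 was called with overlapping groups (adjusted p in edgeR 0.0490). PECAM1 (2233 to 754 CPM), CDH5 (1351 to 799 CPM) and ESAM (430 to 225 CPM) were lower. iREC F stood apart: its 12 mural and mesenchymal markers summed to 5775 CPM, and those of C, D and E to 1326 to 2093, and its 7 epithelial markers to 4933 against 302 to 1123. Its 7 pluripotency markers summed to 516 CPM, against 54.2 to 183 in C, D and E, with NANOG and TDGF1 at or under the floor in every sample. Most of the sum in F was LIN28A, at 482 CPM, while POU5F1 and SOX2 were each at 0.393 CPM there. In iEC these lists summed to 253 to 518, 392 to 1177 and 40.01 to 92.1 CPM. The mural and mesenchymal sum was thus higher in every iREC sample than in any iEC sample, and 4 of the 10 tested markers of that list were called, 3 higher and 1 lower. Among them TAGLN rose from 34.6 ± 15.7 CPM to 619 ± 238 CPM and POSTN from 13.4 ± 13.4 CPM to 852 ± 335 CPM (SD, n = 4 each; adjusted p in edgeR 0.000147 and 0.00132). TAGLN and POSTN made up most of the sum in iREC C, D and E. LUM was also called higher and RGS5 lower, both with overlapping groups. RGS5 fell from 116 ± 46.2 CPM to 43.9 ± 19.0 CPM (adjusted p in edgeR 0.0210). In the other tested markers of that list the groups overlapped and no call was made. Of the tested epithelial markers 1 of 6 was called, higher, and of the pluripotency markers 3 of 3, LIN28A and ZFP42 higher and DPPA4 lower. The groups overlapped in each of these called epithelial and pluripotency markers. The part of these markers in the results that follow was not tested.

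At an adjusted p under 0.05 in edgeR's quasi-likelihood test, 5 of the 9 members were called, against 25.0% of all tested genes. DLK1, MEST, PLAGL1 and NNAT were higher in iREC, against 13.2% of all genes called higher, and GRB10 was lower, against 11.7% called lower. These 5 were also the members whose groups did not overlap in CPM, against 29.1% of all genes. Since the genes were picked with this comparison known, these counts and the values that follow describe the samples and nothing is read from them. The median log2 fold change was 1.31 over the 9 genes and 0.020 over all tested genes. By parental origin, 4 of the 7 paternally expressed genes were called, all higher in iREC, and of the 2 maternally expressed genes 1 was called, GRB10, lower.

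**Figure D1:**
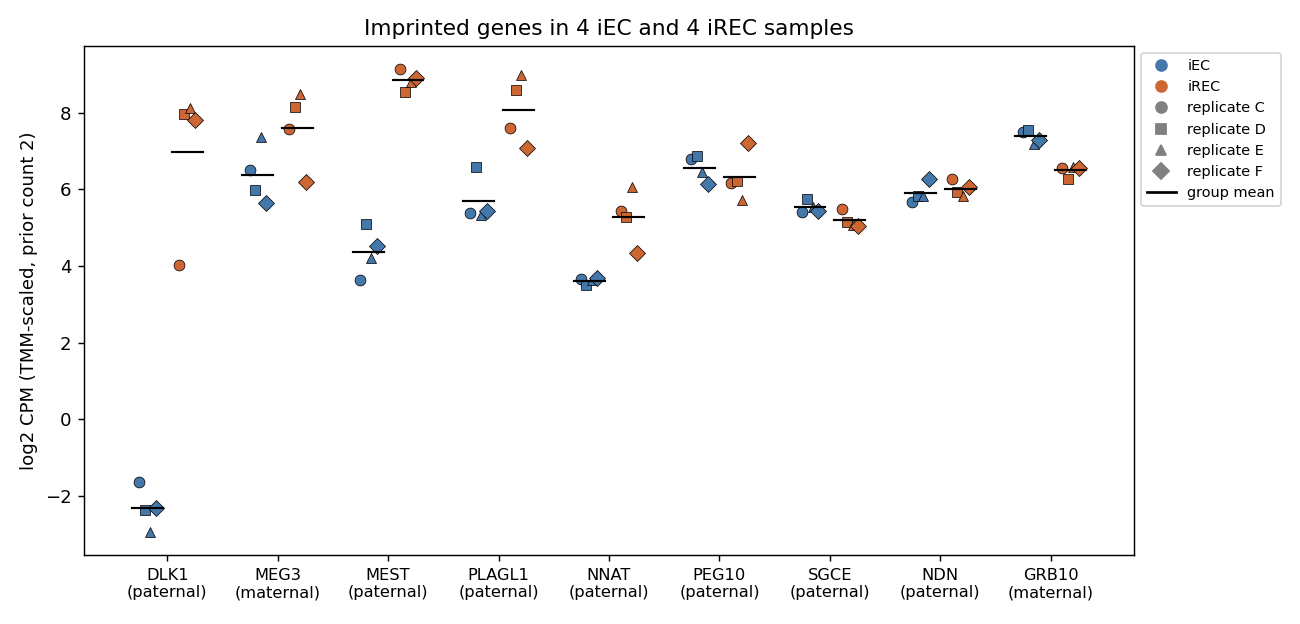
log2 CPM (TMM-scaled, prior count 2) of each gene in the 4 iEC and 4 iREC samples, with a marker shape per replicate letter and a line at the group mean. DLK1, MEST, PLAGL1 and NNAT lie higher in every iREC sample than in any iEC sample, GRB10 lies lower, and the groups overlap in MEG3, PEG10, SGCE and NDN.

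DLK1 (ENSG00000185559, GRCh38 chromosome 14, 100725705 to 100738224, plus strand) encodes a transmembrane protein of the Delta family that lacks the domain of canonical Notch ligands, and it is best known for holding back adipocyte differentiation. In iEC it had 3, 1, 0 and 1 counts in C, D, E and F. In iREC it had 16.2 CPM in C, 248 in D, 280 in E and 224 in F. Every iEC sample was at or under the floor, and every iREC sample was above it, but iREC C lay far below the other iREC samples. The iREC mean of 192 ± 120 CPM (SD, n = 4) was at least 895-fold higher than the floor of 3 counts in the shallowest iEC library. Sample C alone was at least 75.3-fold above that floor, and the other samples at least 1043-fold to 1305-fold. Without C, the mean was at least 1168-fold above the floor.

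MEG3 (ENSG00000214548, chromosome 14, 100779410 to 100861031, plus strand) is the maternally expressed long noncoding RNA of the DLK1 domain. It had 90.8 CPM in iEC C, 62.9 in D, 164 in E and 50.03 in F. In iREC it had 189.7 CPM in C, 284 in D, 362 in E and 73.6 in F. The groups overlapped, because iREC F lay below 2 iEC samples, C and E. The means were 91.9 ± 51.0 and 227 ± 124 CPM (SD, n = 4 each), a log2 fold change of 1.31 ± 0.50 (SE), which edgeR did not call. Without iREC F the log2 fold change was 1.60 and without iEC E 1.75, and in both fits MEG3 was called. Per length, in the deposited FPKM described below, MEG3 was at 8.03, 11.97, 15.2 and 3.15 in iREC C to F and DLK1 at 2.99, 45.7, 51.5 and 41.9. DLK1 was thus the higher of the pair in D, E and F, and MEG3 in C. In iEC, MEG3 had 699 to 2770 counts per sample while DLK1 was at the floor.

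The other listed genes of this domain were RTL1, MEG8, MEG9 and DIO3, a list also chosen with earlier results of these data known. All 4 of 4 were called higher in iREC by edgeR, against 13.2% of all tested genes, and this count is a description only. RTL1 (chromosome 14, 100879753 to 100903722), a paternally expressed gene derived from a retrotransposon, had 0.390, 0.632, 0.710 and 0.0716 CPM in iEC C to F and 2.62, 4.43, 7.57 and 1.83 CPM in iREC C to F (log2 fold change 3.15 ± 0.64, SE; adjusted p in edgeR 0.00663). MEG9 (chromosome 14, 101064151 to 101072937), a maternally expressed noncoding RNA, rose from 1.75 ± 0.619 CPM in iEC to 7.61 ± 3.53 CPM (± SD, n = 4 each; a log2 fold change of 2.11 ± 0.42, SE; adjusted p in edgeR 0.00657). Of the maternally expressed genes of the domain, MEG9 was thus called with groups that did not overlap, while MEG3 was not called.

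MEG8 (chromosome 14, 100894770 to 101038859), also noncoding and maternally expressed, had 1.74 ± 1.12 CPM in iEC and 8.44 ± 8.10 CPM in iREC (SD, n = 4). Its groups overlapped and its edgeR adjusted p was 0.0483. Leaving out 1 sample ended that call in 6 of 8 fits, those without iEC C, D or F or iREC C, D or E. It was also lost with library size only and in limma-voom, and without iREC E its log2 fold change went from 2.26 to 1.36. MEG8 and RTL1 overlap on opposite strands, so their counts are uncertain, since use of the strand in counting is not given in the sources used here. DIO3 (chromosome 14), which encodes the deiodinase that inactivates thyroid hormone, had 0, 4, 0 and 0 counts in iEC C to F. In iREC C to F it had 9.49, 19.7, 20.6 and 13.1 CPM (adjusted p in edgeR 0.000155). Its fold change rests on those few iEC counts and is not given.

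DLK1, MEG3, RTL1, MEG8, MEG9 and DIO3 each had their highest iREC value in sample E, the library with the most genes detected. MEG3, RTL1, MEG8 and MEG9 had their lowest iREC value in F, whereas DLK1 and DIO3 had theirs in C. The part of these library differences in the values was not tested.

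MEST (ENSG00000106484, chromosome 7, 130486171 to 130506465, plus strand) encodes a member of the alpha/beta hydrolase fold family that is a marker of embryonic mesoderm. It had 12.2 CPM in iEC C, 33.9 in D, 18.4 in E and 22.8 in F. In iREC it had 564 CPM in C, 376 in D, 449.7 in E and 477 in F. The groups were far apart, and the lowest iREC sample, D, exceeded the highest iEC sample, also D. The means were 21.8 ± 9.13 and 467 ± 77.7 CPM (SD, n = 4 each), 21.4-fold higher in iREC, with a log2 fold change of 4.42 ± 0.32 (SE). Unlike DLK1, MEST varied little within iREC, by 1.501-fold between its highest and lowest sample.

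The antisense genes MESTIT1 and AC007938.2 overlap MEST, with at most 12 and 34 counts in any sample, and COPG2 overlaps its end by 228 bases. COPG2, on the other strand, had 29.6 ± 4.38 and 33.1 ± 5.64 CPM (SD, n = 4 each) and was not called (adjusted p in edgeR 0.512). CPA4 of the same domain was not called either (adjusted p in edgeR 0.445). MEST was thus the gene of this domain with a call.

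PLAGL1 (ENSG00000118495, chromosome 6, 143940300 to 144064599, minus strand) encodes a zinc finger transcription factor that can arrest the cell cycle and that regulates other imprinted genes. It had 41.7 CPM in iEC C, 96.0 in D, 40.5 in E and 43.4 in F. In iREC it had 195 CPM in C, 385 in D, 503 in E and 136 in F. The groups did not overlap, though iEC D lay far above the other iEC samples and iREC F was nearest to it. The means were 55.4 ± 27.1 and 305 ± 169.8 CPM (SD, n = 4 each), 5.50-fold higher in iREC (log2 fold change 2.46 ± 0.46, SE). Without iREC F the log2 fold change was 2.70. HYMAI, a noncoding RNA on the same strand inside PLAGL1, had 3 to 6 counts in the iEC samples and 3, 9, 45 and 4 in iREC C to F.

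NNAT (ENSG00000053438, chromosome 20, 37521206 to 37523693, plus strand) encodes neuronatin, a small membrane protein of the endoplasmic reticulum known from the developing brain. It had 12.6, 11.2, 12.3 and 12.7 CPM in iEC C to F. In iREC it had 42.9 CPM in C, 38.5 in D, 66.9 in E and 20.2 in F. The iEC samples were nearly alike, and every iREC sample lay above them. The means were 12.2 ± 0.705 and 42.1 ± 19.2 CPM (SD, n = 4 each), 3.45-fold higher in iREC (log2 fold change 1.79 ± 0.31, SE, and 2.02 without iREC F). NNAT lies wholly within BLCAP, on the other strand, so the counts of both are uncertain, since use of the strand in counting is not given. BLCAP had 132 ± 20.01 and 133 ± 35.8 CPM (SD, n = 4 each) and was not called (adjusted p in edgeR 0.969).

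GRB10 (ENSG00000106070, chromosome 7, 50590063 to 50793462, minus strand) encodes an adaptor that binds the insulin and IGF1 receptors and dampens their signal. It had 181 CPM in iEC C, 188 in D, 146 in E and 158 in F. In iREC it had 95.0 CPM in C, 77.3 in D, 96.6 in E and 94.4 in F. Every iREC sample lay below every iEC sample, and iREC D lay apart from the other iREC samples. The means were 168 ± 19.8 and 90.8 ± 9.07 CPM (SD, n = 4 each), 1.85-fold higher in iEC (log2 fold change -0.89 ± 0.13, SE). Its neighbour DDC, which encodes aromatic L-amino acid decarboxylase, was called higher in iREC (adjusted p in edgeR 0.000641). DDC had at most 1 count in any iEC sample and 12, 23, 28 and 20 counts in iREC C to F. Its iREC mean of 1.36 CPM was at least 6.34-fold above the floor in the shallowest iEC library, and iREC C, at 0.785 CPM, lay nearer to the floor.

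PEG10 and SGCE start close together on opposite strands of chromosome 7 and overlap by 248 bases. PEG10 (ENSG00000242265, 94656325 to 94669695), a gene derived from a retrotransposon and needed in the placenta, had 111, 118, 88.2 and 70.5 CPM in iEC C to F. In iREC C to F it had 71.6, 74.7, 52.8 and 148 CPM. Sample F was the highest of all 8, and the other iREC samples lay below the iEC mean of 96.9 CPM. The log2 fold change of PEG10 was -0.16 ± 0.31 (SE) and was not called. It went to -0.55 without iREC F and to 0.021 without iREC E.

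SGCE (ENSG00000127990, 94524204 to 94656572) encodes epsilon-sarcoglycan, and loss of its paternal copy causes myoclonus-dystonia. It had 42.3, 54.2, 46.1 and 43.4 CPM in iEC C to F and 45.0, 35.6, 33.3 and 33.0 CPM in iREC C to F. The groups overlapped through iREC C, the log2 fold change was -0.34 ± 0.14 (SE), and edgeR did not call it; without iREC C it was -0.45 and was called. The ratio of PEG10 to SGCE CPM was 1.63 to 2.63 in iEC. In iREC it was 1.59 in C, 2.10 in D, 1.58 in E and 4.49 in F. The ratio was thus between 1.58 and 2.63 in 7 samples, and iREC F lay above them. CASD1, PPP1R9A and TFPI2 of this domain were not called (0 of 3). CASD1 overlaps SGCE by 32816 bases on the opposite strand, so the counts of both are uncertain, since use of the strand in counting is not given.

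NDN (ENSG00000182636, chromosome 15, 23685400 to 23687330, minus strand) encodes necdin, a MAGE family protein that restrains cell growth and lies in the Prader-Willi region. It had 51.0, 56.3, 57.0 and 77.3 CPM in iEC C to F and 76.6, 61.4, 56.6 and 66.6 CPM in iREC C to F. The groups overlapped throughout, and the log2 fold change was 0.11 ± 0.16 (SE), not called. Of its neighbours MAGEL2, SNRPN, SNURF, UBE3A and SNHG14, none (0 of 5) was called. UBE3A, the ubiquitin ligase of Angelman syndrome, had 92.0 ± 9.52 and 96.4 ± 3.19 CPM (SD, n = 4 each; log2 fold change 0.07 ± 0.11, SE). MAGEL2 was low and had 1.95 ± 1.86 and 5.89 ± 3.03 CPM (adjusted p in edgeR 0.0887). ATP10A was below the filter, with at most 3 counts in any iEC sample and 6, 89, 47 and 329 counts in iREC C to F.

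**Figure D2:**
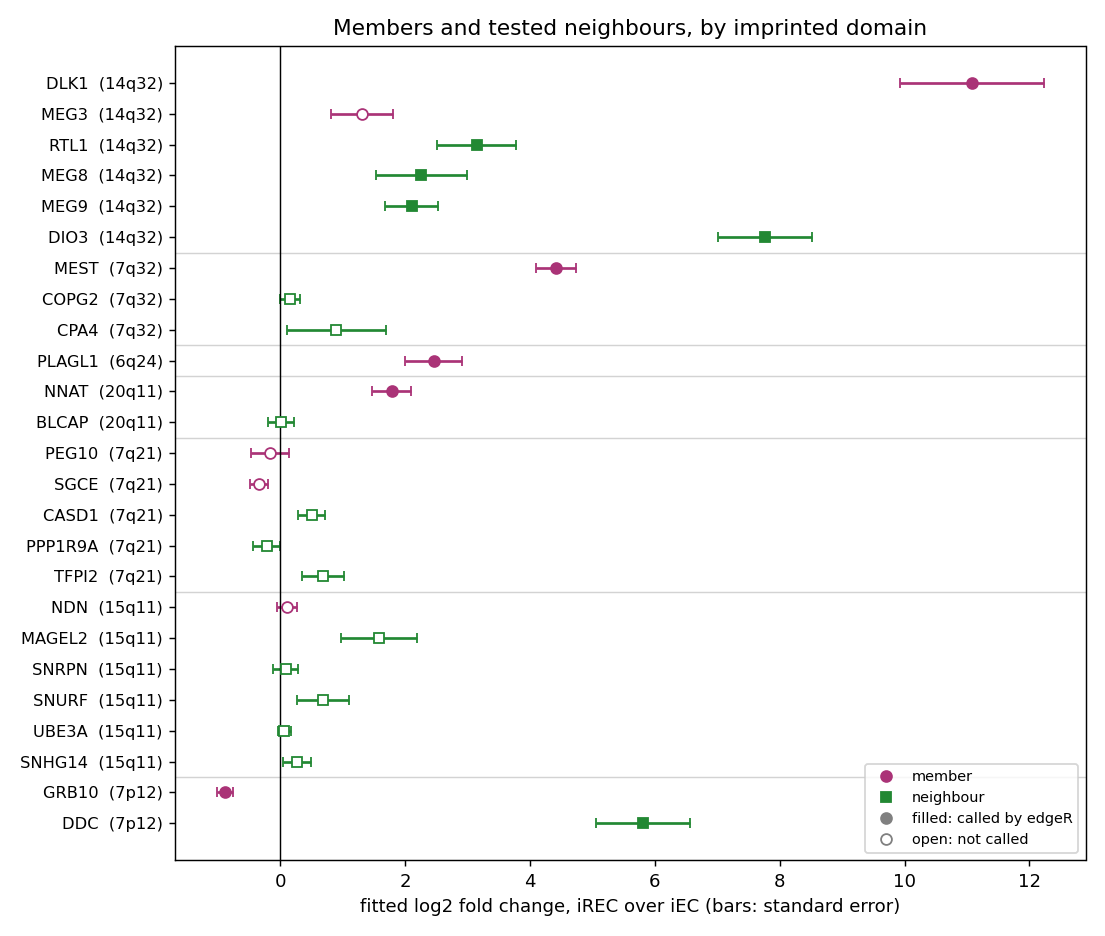
Fitted log2 fold change of iREC over iEC with its standard error, for the 9 genes (circles) and the 16 tested neighbours of their domains (squares), grouped by domain and filled where edgeR called the gene. All 4 neighbours on 14q32 are called higher, against 0 of 5 on 15q11 and 0 of 3 on 7q21, and the values of DLK1, DIO3 and DDC rest on few iEC counts.

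Over all domains, 16 of the 28 listed neighbours were tested and 5 were called, all higher in iREC, with a median log2 fold change of 0.69, the same with DDC at its bound. In the same fit, 25.0% of all genes were called. Of the 28 imprinted genes of other domains outside 11p15 that were listed, 19 were tested and 6 called, 3 higher and 3 lower (median 0.059). L3MBTL1, a chromatin reader, rose from 3.096 ± 1.12 CPM to 8.635 ± 1.47 CPM (SD, n = 4; adjusted p in edgeR 0.00742). ZDBF2 rose from 16.9 ± 3.80 CPM to 30.7 ± 5.94 CPM (adjusted p in edgeR 0.0148). NAP1L5 rose from 13.6 ± 1.68 CPM to 21.4 ± 2.31 CPM (adjusted p in edgeR 0.0142), a call lost without iEC C or E. All 3 are paternally expressed.

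Of the genes called lower, INPP5F, a phosphoinositide phosphatase, fell from 51.7 ± 9.27 CPM to 31.6 ± 3.99 CPM (SD, n = 4; adjusted p in edgeR 0.0115). HM13, a signal peptide peptidase, fell from 190 ± 25.3 CPM to 131 ± 11.1 CPM (adjusted p in edgeR 0.0132), a call lost without iEC E. IGF2R, the receptor that clears IGF2 and whose imprinting in people is variable, fell from 467 ± 93.9 CPM to 251 ± 91.7 CPM (adjusted p in edgeR 0.0286). Its groups overlapped. Leaving out 1 sample ended the call in 6 of 8 fits, those without iEC C, D or F or iREC C, D or E. GNAS, the most abundant gene of this list, had 912 ± 124 and 827 ± 109 CPM (SD, n = 4 each) and was not called (adjusted p in edgeR 0.520).

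Genes within 500 kb of a member were also counted, a window chosen after the data were seen. Among the 44 tested genes that are no members, 11 were called, 8 higher and 3 lower, with a median log2 fold change of 0.16. That is the same share as the 25.0% of all tested genes called. Around DLK1 and MEG3, 4 of 9 were called, all higher, and RTL1, MEG8 and MEG9 were among them. Around MEST, 2 of 8 were called, both lower, the noncoding LINC-PINT (log2 fold change -3.51 ± 0.65, SE) and LINC00513 (-2.70 ± 0.65). Around PLAGL1, 3 of 10 were called, with PHACTR2 higher (91.8 to 328 CPM) and UTRN, which encodes utrophin, lower (495 to 199 CPM). Around PEG10 and SGCE (3 tested) and around NDN (2 tested), 0 were called.

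Levels of different genes were compared per length, in the deposited FPKM (size-factor normalized counts per kilobase of gene length, scaled by a common library size). The deposited lengths equal the union of exons in GENCODE release 29, 23224 bases for MEG3 and 20884 for SGCE, so genes with many alternative exons read low on this scale. In iEC the order of mean FPKM was NDN (31.1 ± 6.77, SD, n = 4), GRB10 (17.01 ± 1.84), PEG10 (14.3 ± 2.96), NNAT (9.10 ± 0.654), PLAGL1 (6.28 ± 3.01), MEST (4.52 ± 1.88), MEG3 (3.91 ± 2.15), SGCE (2.21 ± 0.239) and DLK1 (0.0153 ± 0.015). Samples overlapped between neighbours in this order except between NDN and GRB10, between PEG10 and NNAT and between SGCE and DLK1.

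In iREC the order of mean FPKM was MEST (95.7 ± 16.2, SD, n = 4), DLK1 (35.5 ± 22.05), PLAGL1 (34.2 ± 18.9), NDN (33.2 ± 4.45), NNAT (31.03 ± 14.01), PEG10 (12.8 ± 6.32), MEG3 (9.59 ± 5.21), GRB10 (9.11 ± 0.931) and SGCE (1.73 ± 0.264). Here MEST lay above every other gene in each sample and SGCE below every other gene. The neighbours from DLK1 to GRB10 in this order overlapped between samples.

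Summed over the 7 paternally expressed genes, FPKM was 67.6 ± 7.49 in iEC and 244 ± 28.8 in iREC (SD, n = 4 each). Summed over the 2 maternally expressed genes it was 20.9 ± 1.48 and 18.7 ± 5.03. The ratio of the sums was 2.77, 3.46, 2.85 and 3.94 in iEC C to F and 12.7, 12.1, 11.5 and 18.02 in iREC C to F, so the groups did not overlap. MEST alone made up 31.99% to 51.7% of the paternal sum in iREC and 4.12% to 9.32% in iEC. Without MEST the ratio was 2.65 to 3.68 in iEC and 6.16 to 10.2 in iREC. Within the maternal sum, GRB10 was lower in iREC while MEG3 had the higher mean there. With 2 maternal genes that differ in direction, of which GRB10 is read from both alleles in most human tissues, the sums do not describe a class.

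**Figure D3:**
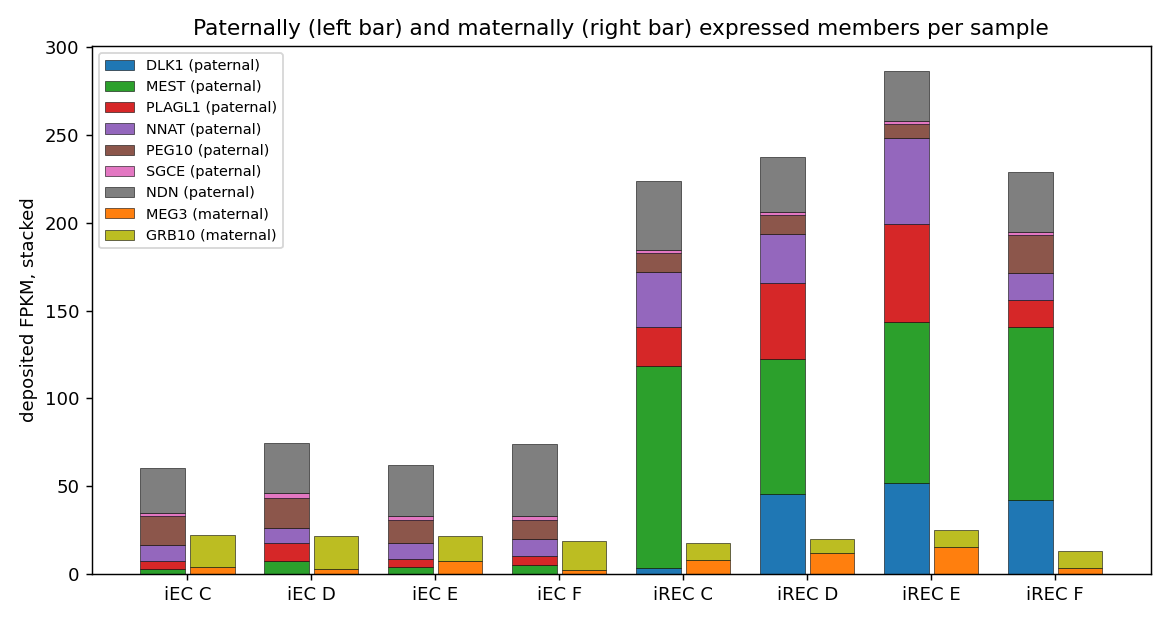
Deposited FPKM of the paternally expressed genes (left bar) and the maternally expressed genes (right bar) in each of the 8 samples, stacked by gene. The paternal bars stand between 60.5 and 74.3 in iEC and between 224 and 287 in iREC, and the maternal bars stay between 12.7 and 24.9 in all samples.

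The spread between replicates was described by the SD of log2 CPM over the 4 samples of a group, whose median over all tested genes was 0.31 in iEC and 0.28 in iREC. In iREC, DLK1 had an SD of 1.97, larger than 99.2% of tested genes. MEG3 (1.01), PLAGL1 (0.87), NNAT (0.71) and PEG10 (0.63) also lay above the iREC median, while MEST (0.24), SGCE (0.21), NDN (0.19) and GRB10 (0.15) lay below it. In iEC, the SD was above the median for MEG3 (0.75), MEST (0.61), PLAGL1 (0.60), DLK1 (0.54, at the floor) and PEG10 (0.34). It was below it for NDN (0.26), GRB10 (0.17), SGCE (0.16) and NNAT (0.084). In each group, 5 of the 9 genes were thus above the median of all genes. NNAT was among the least variable genes in iEC (larger than 5.46% of tested genes) and among the more variable in iREC (larger than 85.9%), a difference that was not tested.

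**Figure D4:**
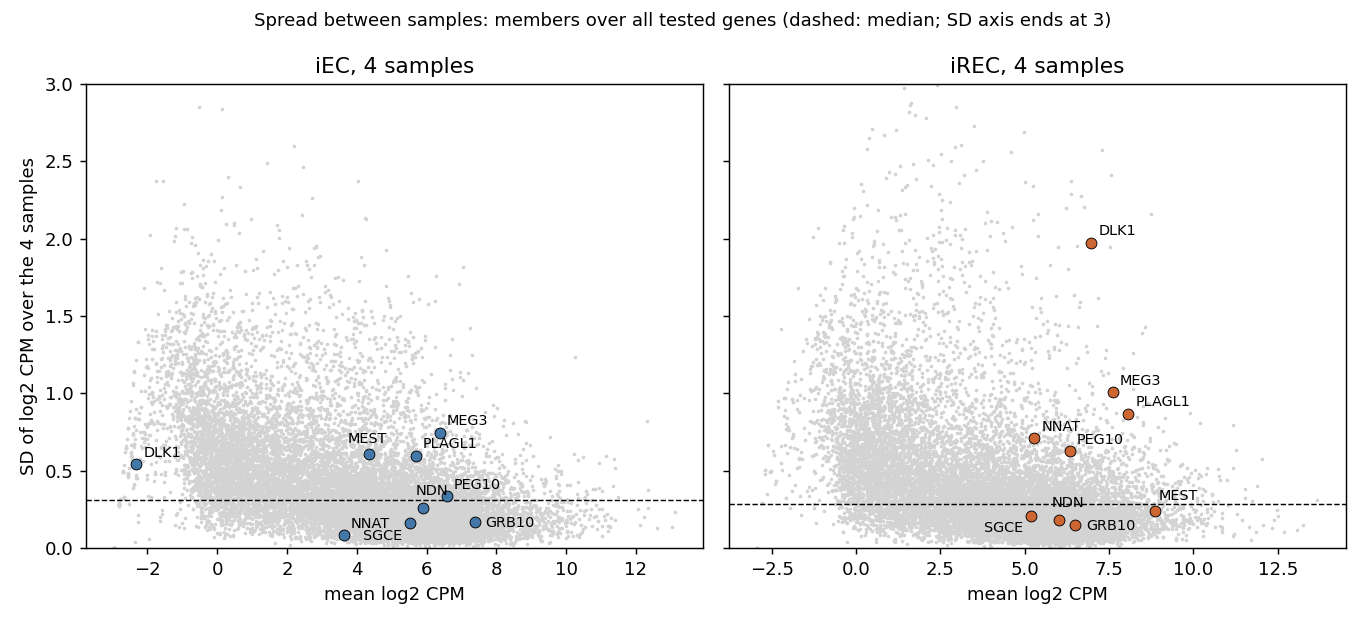
SD of log2 CPM over the 4 samples against mean log2 CPM, in iEC and iREC, for all 15330 tested genes (grey) and the 9 imprinted genes (coloured); the dashed line is the median SD, 0.31 in iEC and 0.28 in iREC. DLK1 (1.97), MEG3, PLAGL1, NNAT and PEG10 lie above the line in iREC, and GRB10, NDN and SGCE lie below it in both groups.

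The samples that made this spread were not the same for all genes. DLK1 in iREC C lay 2.95 below its group mean on the log2 scale. In iREC F, MEG3 was 1.40, PLAGL1 0.98 and NNAT 0.93 below the group mean (log2), and PEG10 0.88 above it. In iREC E, MEG3, PLAGL1 and NNAT were 0.89, 0.91 and 0.79 above the mean. F was thus the lowest iREC sample for 4 of the 9 genes and E the highest for 5. F also had the highest mural and mesenchymal, epithelial and pluripotency sums, given above. The part of those sums in these values was not tested. DLK1 was not low in F, at 224 CPM. Without F, the log2 fold change went from 4.42 to 4.40 for MEST, from -0.89 to -0.91 for GRB10, from 0.11 to 0.10 for NDN and from -0.34 to -0.29 for SGCE, and no call of these changed.

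**Figure D5:**
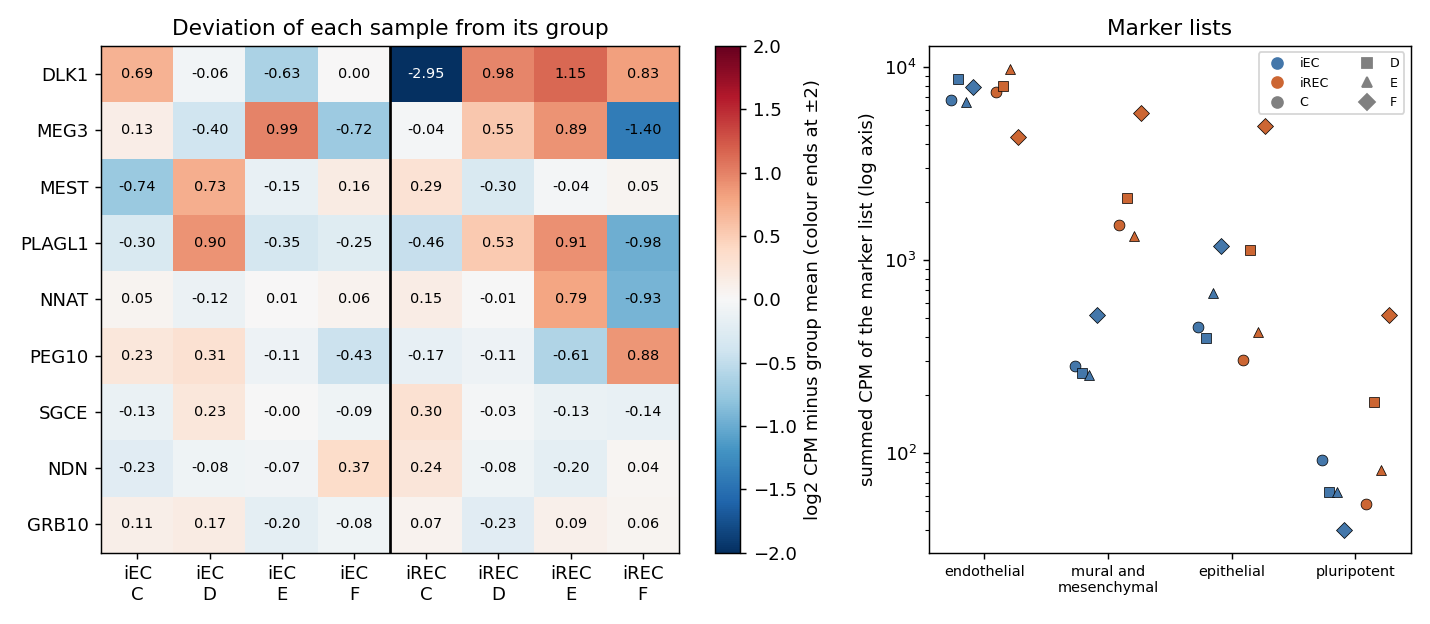
Left, log2 CPM of each gene in each sample minus the mean of its group; right, summed CPM of 4 marker lists per sample on a log axis. DLK1 stands out in iREC C (-2.95), MEG3, PLAGL1 and NNAT are lowest in iREC F, and iREC F has the highest mural and mesenchymal, epithelial and pluripotency sums.

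Markers of cells in which DLK1 or its neighbours are known to be abundant were read beside it. The 4 hepatic markers in the table summed to 0.215 to 0.975 CPM in iEC and 16.3 to 73.4 CPM in iREC. Nearly all of the iREC sum was TTR (73.02 CPM in iREC C, 32.8 in D, 41.5 in E and 14.9998 in F). ALB was at or under the floor in every sample and AFP had at most 18 counts. TTR was called higher, with groups that did not overlap (adjusted p in edgeR 9.64e-05). Within iREC, TTR was highest in C, where DLK1 was lowest, and TTR was lowest in F. Whether TTR and DLK1 vary together was not tested. The adipogenic list summed to 65.4 to 426 CPM in iEC and 260 to 750 CPM in iREC, most of it LPL, and ADIPOQ was at or under the floor. Of its 3 tested genes 2 were called, both higher in every iREC sample than in any iEC sample. PPARG, the main transcription factor of adipocytes, rose from 1.58 ± 0.604 CPM to 20.7 ± 9.71 CPM, and FABP4, a fatty acid binding protein also found in endothelium, from at most 2 counts in any iEC sample to 25.5 ± 12.4 CPM (SD, n = 4 each; adjusted p in edgeR 0.000362 and 2.62e-05). The 5 neural markers in the table summed to 5.37 to 7.28 CPM in iEC and 7.52 to 27.6 CPM in iREC, with PAX6 and ELAVL3 at or under the floor. All 3 tested neural markers were called, SNAP25 (1.64 to 7.06 CPM) and STMN2 (1.25 to 7.35 CPM) higher and TUBB3 (3.29 to 1.15 CPM) lower (adjusted p in edgeR 0.0111, 0.0499 and 0.0116). In STMN2 the groups overlapped. The 5 blood markers summed to 24.3 to 46.5 CPM in iEC and 15.4 to 19.5 in iREC, most of it RUNX1, which fell from 30.2 ± 10.8 CPM to 15.5 ± 1.07 CPM (SD, n = 4 each; adjusted p in edgeR 0.0131). PTPRC, which encodes the leukocyte antigen CD45, was called higher (adjusted p in edgeR 0.00243), with 0 counts in every iEC sample and 42, 17, 13 and 27 counts in iREC C to F. The 5 muscle and cardiac markers summed to at most 1.90 CPM in any sample. The part of these markers in the results was not tested.

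DLK1 is related to the Notch ligands, so the Notch axis was read as a list of 16 genes, all tested. In it, 6 genes were called, 4 higher and 2 lower (median log2 fold change 0.14), against 25.0% of all genes. Among the receptors, NOTCH3 rose from 7.79 ± 3.95 CPM in iEC to 58.1 ± 39.5 CPM (± SD, n = 4 each; a log2 fold change of 2.90 ± 0.52, SE; adjusted p in edgeR 0.00367), with 116 CPM in iREC F and 31.3 to 48.5 in C, D and E. Without F its log2 fold change was 2.31, still called. NOTCH4, a receptor of endothelial cells, fell from 190 ± 43.6 CPM to 64.7 ± 19.0 CPM (adjusted p in edgeR 0.00208). NOTCH1 and NOTCH2 were not called.

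Among the ligands, JAG2 fell from 195 ± 43.3 CPM in iEC to 37.4 ± 13.4 CPM (± SD, n = 4 each; a log2 fold change of -2.38 ± 0.30, SE; adjusted p in edgeR 0.00061), and JAG1 and DLL4 were not called. DLK2, the close relative of DLK1, had 0.774 ± 0.197 and 1.52 ± 0.148 CPM (adjusted p in edgeR 0.0506). Among the target genes, HEY2 rose from 5.32 ± 3.08 CPM to 45.4 ± 12.8 CPM (adjusted p in edgeR 0.000976) and HES4 from 13.2 ± 8.14 CPM to 50.9 ± 13.1 CPM (adjusted p in edgeR 0.00907). HEYL rose too, from at most 4 counts in any iEC sample to 1.53 ± 0.729 CPM (adjusted p in edgeR 0.00599). HES1 and HEY1 were not called.

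Of 19 listed factors that keep or remove methylation at imprinting control regions, 16 were tested and 2 called, both higher (median log2 fold change 0.38), against 25.0% of all genes. SETDB1, a histone methyltransferase recruited by TRIM28, rose from 26.04 ± 1.42 CPM to 37.0 ± 4.37 CPM (SD, n = 4; adjusted p in edgeR 0.0166). SMCHD1 rose from 63.1 ± 12.05 CPM to 87.3 ± 4.90 CPM (adjusted p in edgeR 0.0462). The call for SETDB1 was lost without iEC E or iREC D, and that for SMCHD1 without iEC E or F or any of the 4 iREC samples. With no filter on low counts neither was called, and with library size only SMCHD1 was not. TRIM28 and DNMT1 had 295 ± 31.8 and 155 ± 53.2 CPM in iEC and 316 ± 74.0 and 160 ± 30.2 CPM in iREC (SD, n = 4 each) and were not called (adjusted p in edgeR 0.715 and 0.912). DNMT3B had 14.5 ± 9.95 CPM in iEC and 36.2 ± 0.853 CPM in iREC (SD, n = 4 each). Its groups did not overlap, but it was not called (adjusted p in edgeR 0.0650). ZFP57 was below the filter, with 0 counts in every iEC sample and 2, 6, 1 and 11 counts in iREC C to F.

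The genes whose pattern was most like that of DLK1 were ranked by the mean absolute difference of centred log2 CPM over the 8 samples, among 10257 other genes whose mean reached 10 CPM in either group. The 5 nearest were ALDH1A1 (0.51), IGF2 (0.75), STAB2 (0.82), CRHBP (0.94) and VIPR1 (1.05). ALDH1A1 had 15.4 CPM in iREC C against 133, 123 and 49.9 in D, E and F, and IGF2 had 75.7 CPM in C against 275, 379 and 213. In ALDH1A1, IGF2, STAB2 and CRHBP, as in DLK1, C was the lowest iREC sample, while VIPR1 was lowest in F, at 26.9 CPM. All 5 genes were under 1 CPM in every iEC sample. The ranking used these same 8 samples, so a shared pattern follows from the selection. For MEG3 the 5 nearest were ZNF175 (0.29), FAM86B3P (0.30), FAR2P1 (0.31), PHACTR2 (0.354) and ZNF37BP (0.355). ZNF175 had 39.6 CPM in iREC E and 13.9 in iREC F. Of these 10 genes, PHACTR2 lies within 500 kb of PLAGL1. FAM86B3P, FAR2P1 and ZNF37BP are pseudogenes, so their counts are uncertain.

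In the authors' deposited table, the 9 genes had the same sign of log2 fold change as here. It lists MEG3 at a log2 fold change of 1.29 with an adjusted p of 0.0283, so MEG3 is past 0.05 there and not in the edgeR fit. For the other 8 genes the side of that threshold was the same in both.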

How the data were processed

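Messenger RNA of 8 samples was measured by RNA sequencing. Poly-A selection and a dUTP second strand are given, per the labels' protocols. The submitters' processing notes name fastp, HISAT2 2.0.5 and the hg38 build; the counting program and its use of the strand are not given in the sources used here. The authors deposited read counts per gene, a normalized signal (counts over 1 size factor per sample), FPKM from that signal, log2 fold changes and p-values, per the file headers and values.

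Here, counts were filtered by filterByExpr, scaled by TMM and tested by edgeR 4.0.16 (quasi-likelihood F-test, group only, 8 samples, Benjamini-Hochberg over 15330 genes, calls at 0.05; R 4.3.3). The fit was checked on simulated counts. A prior count of 2 was added before taking log2 CPM and its SD. Totals were 13739364 to 16971865 counts. Alternatives were DESeq2 1.42.0, limma-voom (limma 3.58.1), other scalings, no filter, a replicate block and leaving out each sample.

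Members and lists were chosen with earlier results of these data known. The rule named every member, up to 4 called genes per direction and list with at least 1 CPM in a group, and the 5 genes most like DLK1 and MEG3; MEG9, MAGEL2, UBE3A, COPG2, CPA4, BLCAP, GNAS, ATP10A, ZFP57, TRIM28, DNMT1, DLK2, PPARG, FABP4, SNAP25, STMN2, TUBB3, RUNX1, PTPRC, TAGLN, POSTN, DNMT3B, LINC-PINT, LINC00513, UTRN and the uncalled Notch genes lie outside it and were picked with their values known. RGS5, LUM, PECAM1, CDH5, ESAM, TEK, EMCN, CLDN5, LIN28A, ZFP42, DPPA4, POU5F1, SOX2 and TTR were also picked with their values known. RefSeq sequences (GRCh38.p14) were matched by symbol.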

Additional observations from a re-analysis of the deposited data

Results flagged for a closer look

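Among 22 groups of 4 samples (CPM of the 9 genes, and the PEG10 to SGCE and paternal to maternal ratios), 2 held a sample far from the others by Dixon's 95% critical value; chance gives about 1 in 20. PLAGL1 had 96.0 CPM in iEC D, against 43.4 in the next highest iEC sample. GRB10 had 77.3 CPM in iREC D, against 94.4 in the next lowest iREC sample. The check was made on CPM and not on log2 CPM. DLK1 in iREC C was not singled out by it, though that sample deviated by -2.95 from its group mean on the log2 scale.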

How the results depend on the processing

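For the 9 imprinted genes, 120 of 126 values under the alternatives kept their direction and side of the threshold. DLK1, MEST, PLAGL1, NNAT and GRB10 were called under all 14 alternatives; the highest adjusted p was 0.0492, for DLK1 in limma-voom, and the log2 fold change of GRB10 ran from -0.95 to -0.82. MEG3 was called by DESeq2 (adjusted p 0.0283), with the replicate block (edgeR, 0.0195), without iEC E (0.0433) and without iREC F (0.0172), and its log2 fold change ran from 0.99 to 1.75. SGCE was called without iREC C (edgeR adjusted p 0.0465). PEG10 changed sign, to 0.021, without iREC E, and was -0.55 without iREC F. The count of called members was 5, and 6 with DESeq2, with the replicate block, and without iEC E, iREC C or iREC F.

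Of the methylation factors, 2 were called, against 4 by DESeq2, 1 with library size only, 1 with the replicate block (DNMT3B, and neither SETDB1, adjusted p 0.0575, nor SMCHD1, 0.0826), and 0 to 3 when a sample was left out. The counts of the other lists, and of genes above the median spread, stayed within 1.5 times. The block also ended the call of NAP1L5 (edgeR adjusted p 0.0513). Whether the replicate letters pair the samples cannot be decided from 4 samples per group. Deviations from the group means correlated, across genes, at 0.17 for C, -0.079 for D, 0.029 for E and 0.25 for F. Between samples of unlike letters the correlations ran from -0.22 to 0.18. The cause of these changes was not tested. Depth limits DLK1, DIO3, DDC and HEYL in iEC, which were near the floor of 3 counts.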
